A study of Mus musculus with 6 samples.

Results

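A set of 40 genes of mRNA 3′ end processing and of the nuclear exosome were followed in mouse embryonic stem cells in which a subunit of the THO complex was targeted by siRNA. They were listed by name, by a rule that uses no measured value but with earlier results of these data known, and code for 7 subunits of the cleavage and polyadenylation specificity factor (CPSF) with its scaffold, 5 of cleavage factors I and II, 4 of the cleavage stimulation factor (CstF), 6 poly(A) polymerases, poly(A)-binding proteins and regulators, 11 exosome subunits, 4 exosome helicase and cofactor proteins, and 3 proteins of cap binding and termination. All 40 were measured, among 19305 genes tested, and each is given by its brightest probe. J1 cells, an established mouse embryonic stem cell line, were grown in ESGRO medium, were switched to M10 for the transfection itself, and received non-targeting (NT) siRNA, Thoc2 siRNA or Thoc5 siRNA. Total RNA was taken 96 hours later and hybridised to single-colour (Cy3) arrays, 2 per group and 6 in all. The labels name no other allele or agent, and do not say whether the 2 arrays of a group came from separate cultures, so a p-value here measures only the spread between arrays, which may be technical.

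The 3′ end of most mRNAs is made by cutting the transcript downstream of a poly(A) signal, which CPSF reads, while CstF binds the downstream sequence and cleavage factors I and II help to choose and cut the site. Poly(A) polymerase then adds the tail, and poly(A)-binding proteins cover it. Transcripts that fail these steps are degraded in the nucleus by the exosome, a barrel of subunits with attached nucleases, which reaches its substrates through a helicase and adaptor proteins. THO travels with RNA polymerase II and couples transcription to mRNA export, and work in yeast and in human cells has tied it to 3′ end processing and to nuclear decay.

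Between 56.7% and 79.7% of spots on an array were well above background, with the lowest share on array 1 of Thoc5 siRNA and the highest on array 1 of Thoc2 siRNA, which also had 880 spots marked as outliers against 63 to 155 on the other arrays. Array 1 of Thoc5 siRNA was also the dimmest, with a 75th percentile of signal of 306 against 716 to 905 on the other arrays. Thoc2 read 1.33 and 1.43 on the NT arrays and 0.70 and 0.33 on the Thoc2 siRNA arrays, in log2 units relative to the 75th percentile of each array's signal, the scale of all levels here. Thoc5 read 1.31 and 1.57 on the NT arrays and 0.34 and -0.0018 on the Thoc5 siRNA arrays. Each target was therefore lower on both arrays of its own siRNA, by 0.86 (SE 0.282) for Thoc2 and by 1.27 (SE 0.273) for Thoc5, but neither passed the adjusted threshold of 0.05 in limma (adjusted p = 0.302 and 0.129). Thoc5 with its own siRNA did pass after normexp correction with quantile scaling (-1.22, adjusted p = 0.0497) and with trended robust variances (-1.27, adjusted p = 0.0459). In bulk RNA, fewer cells of a type and less RNA per cell cannot be told apart. All 8 stem cell markers looked for were well above background on every array, and all 8 had lower means with either siRNA, their summed linear level running from 896 to 935 with NT siRNA, 724 to 749 with Thoc2 siRNA and 714 to 910 with Thoc5 siRNA. Of 7 fibroblast markers, 6 had a kept probe, 3 of them well above background on every array, and 3 of the 6 had higher and 3 lower means with Thoc2 siRNA, and 1 higher and 5 lower with Thoc5 siRNA. The 6 summed to 1.55 to 2.03, 0.807 to 1.09 and 0.672 to 0.750, and 8 markers of differentiated lineages, 7 of them well above background on every array, to 0.932 to 3.28, 1.96 to 1.99 and 1.84 to 4.88, in the same order. The part of these markers in the results below was not tested.

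All 40 genes were well above background on 6 of 6 arrays, and for 39 of 40 the mean level lay above the 75th percentile, as it did for 41.3% of all genes tested. Probes differ in how well they bind, so the levels of different genes do not rank their RNA amounts. The brightest probe was that of Pabpc1, the main cytoplasmic poly(A)-binding protein, at 8.03 and 8.16 under NT, 8.27 and 8.24 under Thoc2 and 8.37 and 8.003 under Thoc5 siRNA. Exosc5, a subunit of the exosome ring, came next at 5.99 and 6.02, 6.23 and 6.44, and 6.36 and 6.0002 in the same order. For both genes the Thoc2 siRNA arrays lay above the NT arrays and the Thoc5 siRNA arrays overlapped them. Pabpn1, the nuclear poly(A)-binding protein that controls tail length, read 5.46 and 5.61 under NT, 5.48 and 5.21 under Thoc2 and 5.47 and 5.55 under Thoc5 siRNA, and its 3 groups overlapped.

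At the dim end, Papolg, which codes for poly(A) polymerase gamma, read 0.64 and 1.031, 0.42 and 0.66, and 0.48 and 0.64 with NT, Thoc2 and Thoc5 siRNA. Zcchc8, the scaffold of the nuclear exosome targeting complex, read 0.63 and 0.43, 0.44 and 0.89, and 0.97 and 0.77. Papolg overlapped between NT and Thoc2 siRNA, while for Zcchc8 both Thoc5 siRNA arrays lay above both NT arrays. Pcf11 was the dimmest of all, and its values are given with cleavage factor II.

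**Figure D1:**
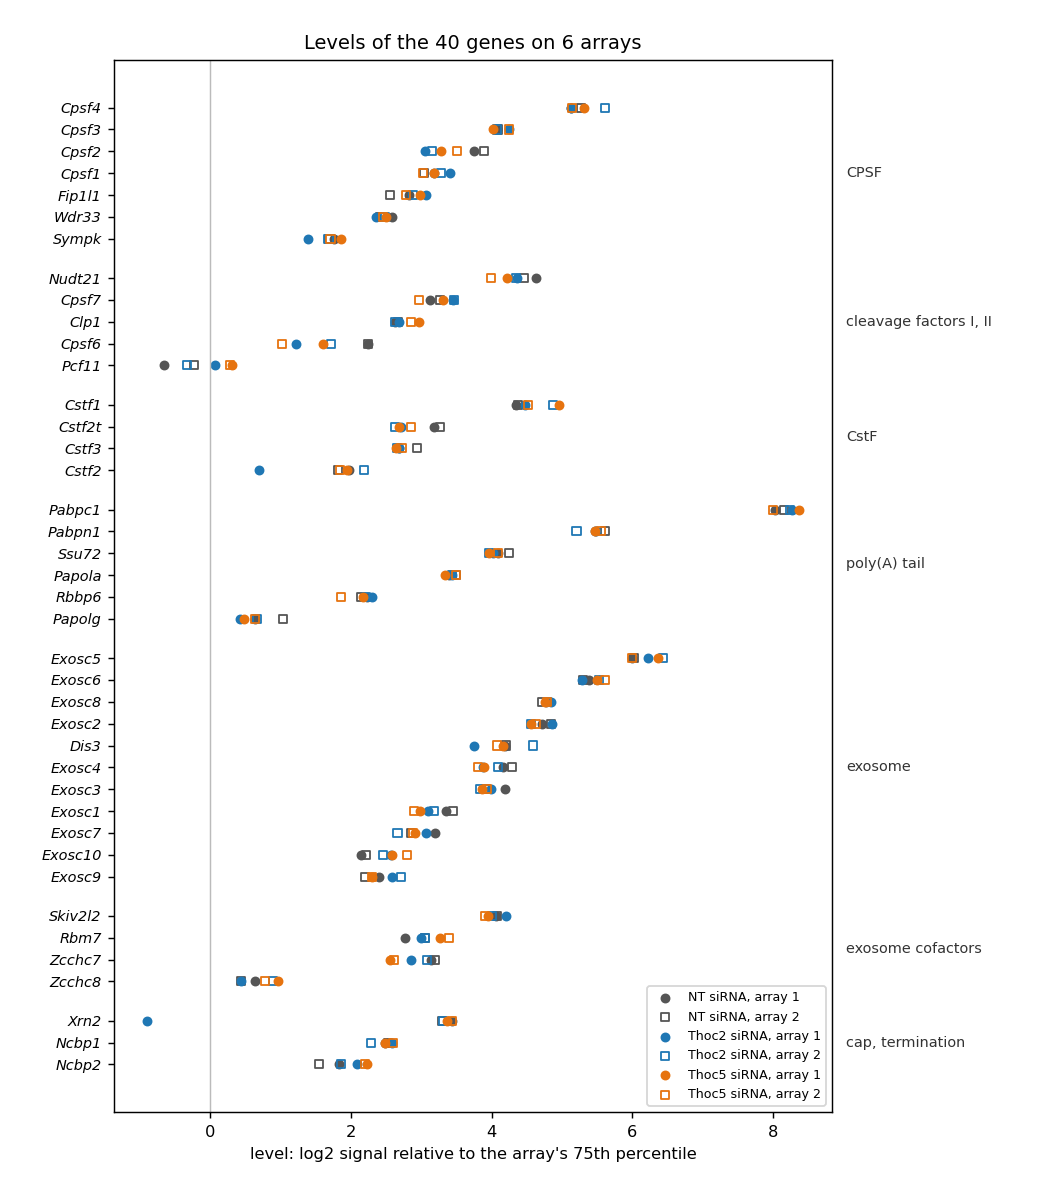
Level of each of the 40 genes on the 6 arrays (x axis, log2 signal relative to the array's 75th percentile), grouped by role; colours are the siRNA groups, filled circles array 1 and open squares array 2. Most genes show 6 nearby points, whereas Xrn2, at -0.90 on array 1 of Thoc2 siRNA and 3.30 to 3.44 on the other 5 arrays, does not.

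No gene of the 40 passed the adjusted threshold in any comparison, and neither did any other gene on the array (0 of 19304 with Thoc2 siRNA and 0 of 19305 with Thoc5 siRNA, 0% in each), although 2817 and 3775 genes had an unadjusted p under 0.05. With Thoc2 siRNA, 3 of the 40 had an unadjusted p under 0.05, 0 higher and 3 lower than with NT siRNA, beside 14.6% of all genes (8.1% higher and 6.5% lower). With Thoc5 siRNA it was 8 of 40, with 3 higher and 5 lower, beside 19.6% of all genes (7.45% higher and 12.1% lower). For 20 of 40 genes the 2 Thoc2 siRNA arrays did not overlap the 2 NT arrays, 10 above and 10 below, beside 46.3% of all genes (25.8% above and 20.6% below), and the count with Thoc5 siRNA was again 20, 8 above and 12 below, beside 52.8% (21.7% above and 31.1% below). These shares are near those of all genes or below them. Both comparisons share the NT arrays. The 8 genes with Thoc5 siRNA became 2 without NT array 1, NT array 2 or Thoc5 siRNA array 1, and 0 without Thoc5 siRNA array 2, and the 3 genes with Thoc2 siRNA became 1 without NT array 2. Under array median scaling the 8 became 0 and with no filter on dim probes 3, while the 3 became 8 after normexp correction and 5 with trended robust variances. The share of all genes was not counted under these settings or with an array left out. Such shifts can therefore not be read as particular to the 40 genes.

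The median difference over the 40 genes was -0.018 with Thoc2 siRNA and -0.013 with Thoc5 siRNA, beside 0.061 and -0.085 over all genes tested. With Thoc2 siRNA, 36 of the 40 genes had a 95% interval of the difference that lay inside a 2-fold change either way, and with Thoc5 siRNA 34 did. The exceptions with Thoc2 siRNA were Cpsf2, Cpsf6, Cstf2 and Xrn2, and those with Thoc5 siRNA were Cpsf6, Cstf1, Cstf2, Ncbp2, Pcf11 and Xrn2. Over all genes the share inside 2-fold was 47.9% and 44.2%. The interval's half-width had a median of 0.45 log2 units for the 40 genes and 0.64 and 0.63 for all genes.

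**Figure D2:**
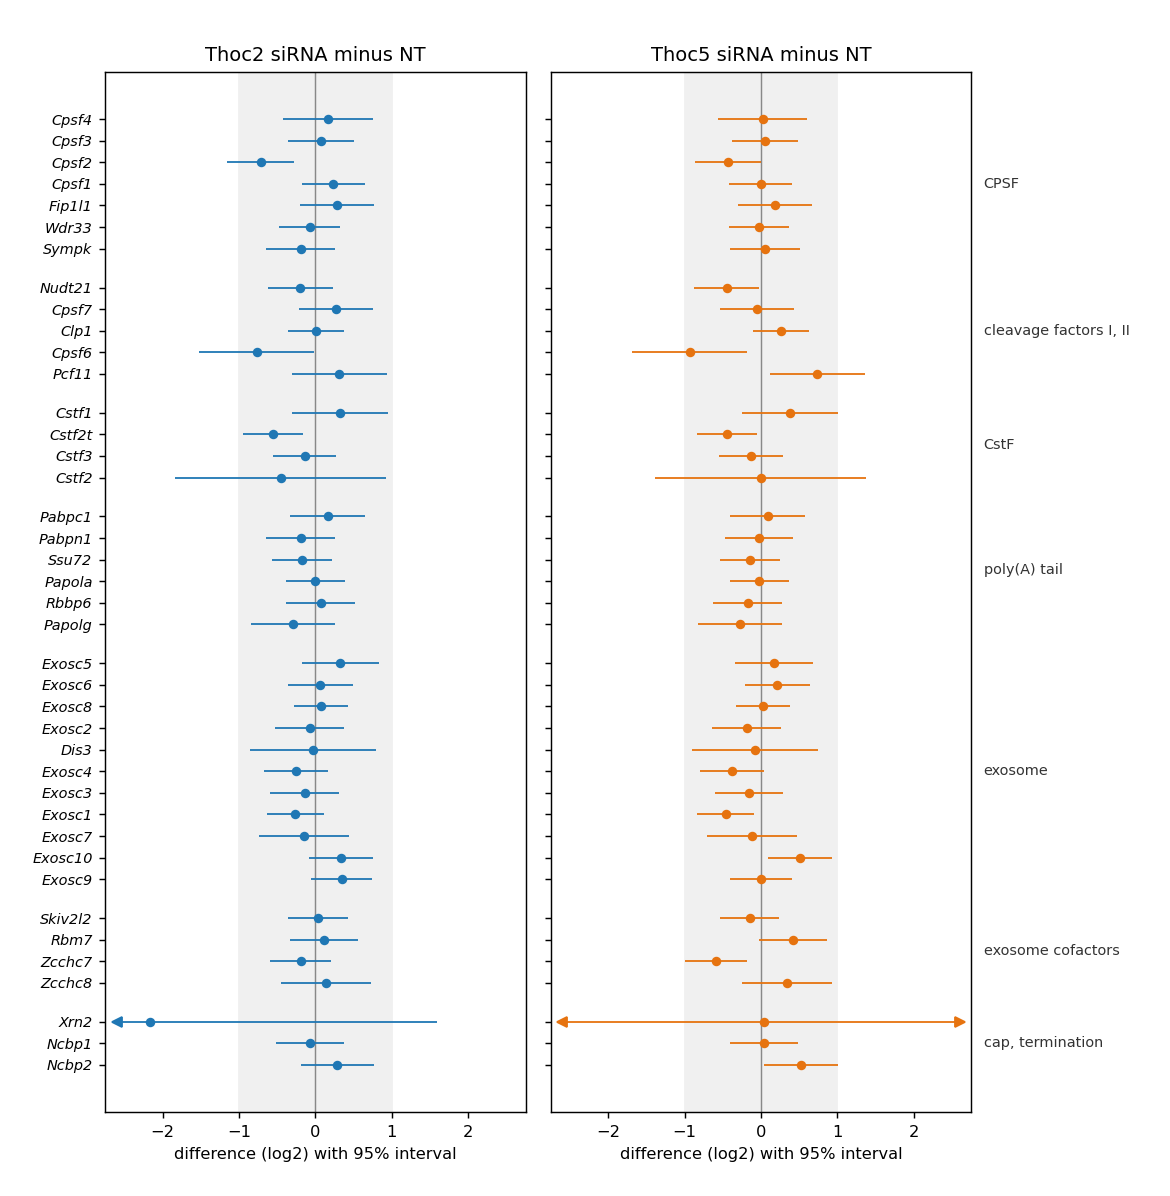
Difference from NT siRNA (x axis, log2) with its 95% interval for the 40 genes, grouped by role, for Thoc2 siRNA (left) and Thoc5 siRNA (right); grey marks a change of less than 2-fold and arrowheads mark intervals that run past the axis. Nearly all points lie in the grey band, with Cpsf2 and Cpsf6 lowest on the left apart from Xrn2, and Cpsf6 lowest and Pcf11 highest on the right.

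CPSF recognises the AAUAAA signal and cuts the RNA. Cpsf2, the subunit that partners the nuclease and has lost its own active site, had the smallest p of the 40 genes with Thoc2 siRNA. Its brightest probe (chr12:99498490-99498549, build mm7) read 3.75 and 3.89 under NT, 3.05 and 3.16 under Thoc2 and 3.27 and 3.51 under Thoc5 siRNA. All 4 THO siRNA arrays were below both NT arrays, with the Thoc2 siRNA arrays lowest. Cpsf2 stood at 60.8% of the NT level with Thoc2 siRNA (log2 difference -0.72, SE 0.163, adjusted p = 0.234) and at 74.1% with Thoc5 siRNA (-0.43, adjusted p = 0.257). Within the slide that each siRNA shares with an NT array, the differences were -0.60 and -0.38.

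The other members of CPSF differed by less. Cpsf3, the nuclease itself, differed by 0.077 and 0.051 with Thoc2 and Thoc5 siRNA, Cpsf1, the largest subunit, by 0.23 and -0.0042, and Cpsf4, a zinc finger protein that contacts the signal, by 0.17 and 0.024. Wdr33, which also reads the signal, differed by -0.077 and -0.022, Fip1l1, which links CPSF to poly(A) polymerase, by 0.28 and 0.19, and the scaffold Sympk by -0.19 and 0.054. Adjusted p-values for these 6 genes were 0.518 or above.

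Cleavage factor I binds UGUA upstream of the cleavage site and consists of Nudt21 with Cpsf6 or Cpsf7. Cpsf6, at chr10:116852768-116852827 on the minus strand, read 2.24 and 2.24 under NT, 1.23 and 1.72 under Thoc2 and 1.60 and 1.026 under Thoc5 siRNA. At this probe no THO siRNA array reached the NT arrays, but the 2 arrays of each siRNA were far apart. The difference was -0.77 with Thoc2 siRNA (SE 0.283, adjusted p = 0.335) and -0.93 with Thoc5 siRNA (adjusted p = 0.194), the lowest of the 40 with Thoc5 siRNA. Within the shared slides it was -0.53 and -1.21. At the most upstream probe of the gene, described below, the difference was instead 0.41 with Thoc2 siRNA and 0.38 with Thoc5 siRNA.

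Nudt21, the subunit that binds the RNA (chr8:92608675-92608734), read 4.63 and 4.46, 4.36 and 4.34, and 4.21 and 3.99 with NT, Thoc2 and Thoc5 siRNA. The 3 groups did not overlap, with NT highest and Thoc5 siRNA lowest. Its difference was -0.45 with Thoc5 siRNA (SE 0.160, adjusted p = 0.240; -0.48 within the shared slide) and -0.20 with Thoc2 siRNA (adjusted p = 0.599). Cpsf7, the alternative partner, differed by 0.27 and -0.050, and its 2 Thoc2 siRNA arrays lay above the NT arrays.

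Pcf11 and Clp1 form cleavage factor II, in which Pcf11 also binds the tail of RNA polymerase II. Pcf11 (chr7:88652753-88653216, a probe that crosses an exon junction) read -0.66 and -0.23 under NT, 0.07 and -0.33 under Thoc2 and 0.31 and 0.28 under Thoc5 siRNA. Only with Thoc5 siRNA did both arrays lie above the NT arrays. That difference was 0.74 (SE 0.234, adjusted p = 0.205), or 167% of the NT level, and 0.51 within the shared slide, whereas with Thoc2 siRNA it was 0.31 (adjusted p = 0.569). Clp1 read 2.62 and 2.67, 2.68 and 2.63, and 2.96 and 2.86 in the same order, and differed by 0.26 with Thoc5 siRNA (adjusted p = 0.377) and by 0.010 with Thoc2 siRNA. Both of its Thoc5 siRNA arrays were above the other 4.

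CstF binds the U- and GU-rich sequence behind the cleavage site, through Cstf2 or its autosomal paralog Cstf2t. Cstf2t (chr19:30785493-30785552) read 3.18 and 3.26 under NT, 2.71 and 2.63 under Thoc2 and 2.69 and 2.86 under Thoc5 siRNA. All 4 THO siRNA arrays lay below both NT arrays, and the 2 siRNA groups overlapped each other. The difference was -0.55 (SE 0.147, adjusted p = 0.255) and -0.45 (adjusted p = 0.215), and -0.55 and -0.40 within the shared slides. Cstf2, on the X chromosome, read 0.70 on array 1 of Thoc2 siRNA and 1.82 to 2.19 on the other 5 arrays, so its difference of -0.45 with Thoc2 siRNA had an SE of 0.519. Cstf3, the bridging subunit, differed by -0.14 and -0.13, and Cstf1 by 0.32 and 0.38 (adjusted p = 0.566 and 0.454). Cstf1, a further subunit, read 4.34 and 4.37, 4.48 and 4.87, and 4.95 and 4.51 with NT, Thoc2 and Thoc5 siRNA, so that both arrays of each siRNA lay above the NT arrays. Its difference was 0.51 without array 1 and 0.12 without array 2 of Thoc2 siRNA, and 0.16 and 0.60 without array 1 and array 2 of Thoc5 siRNA. The other probe of Cstf1, described below, differed by -0.45 with Thoc2 siRNA and by -0.70 with Thoc5 siRNA.

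Among the genes of the poly(A) tail, Papola, the main poly(A) polymerase, was the flattest by its brightest probe, at 3.39 and 3.49, 3.43 and 3.44, and 3.34 and 3.50 with NT, Thoc2 and Thoc5 siRNA. Its difference was -0.0013 with Thoc2 siRNA (95% interval -0.38 to 0.38) and -0.021 with Thoc5 siRNA (-0.40 to 0.36), although other probes of the gene, described below, read otherwise. Papolg differed by -0.30 and -0.28, Pabpn1 by -0.19 and -0.025, and Pabpc1 by 0.16 and 0.092. Rbbp6, a ubiquitin ligase that activates cleavage, differed by 0.069 and -0.17. Ssu72, a phosphatase of the polymerase tail, differed by -0.17 and -0.15, with all 4 THO siRNA arrays below both NT arrays. Adjusted p-values of the 6 genes were 0.540 or above.

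The exosome is a ring of Exosc4 to Exosc9 capped by Exosc1, Exosc2 and Exosc3, to which the nucleases Exosc10 and Dis3 attach. Exosc10, the nuclear nuclease (chr4:147569902-147569961), read 2.14 and 2.21 under NT, 2.57 and 2.45 under Thoc2 and 2.58 and 2.80 under Thoc5 siRNA. Exosc1, a cap subunit (chr19:41817660-41817719), read 3.35 and 3.46, 3.097 and 3.18, and 2.99 and 2.90. Exosc10 was higher than NT on all 4 THO siRNA arrays, and Exosc1, by its brightest probe, was lower on all 4. For Exosc10 the difference was 0.34 with Thoc2 siRNA (SE 0.157, adjusted p = 0.407) and 0.51 with Thoc5 siRNA (adjusted p = 0.196). For Exosc1 it was -0.26 (SE 0.141, adjusted p = 0.451) and -0.46 (adjusted p = 0.194). Within the shared slides Exosc10 differed by 0.31 and 0.59 and Exosc1 by -0.17 and -0.56. The other kept probes of Exosc1 differed by 0.39, -0.087 and 0.056 with Thoc2 siRNA, from upstream to downstream.

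Exosc9 read 2.39 and 2.20 under NT, 2.58 and 2.71 under Thoc2 and 2.30 and 2.30 under Thoc5 siRNA. Its Thoc2 siRNA arrays were above all others, and its Thoc5 siRNA arrays lay between the NT arrays. The difference was 0.34 with Thoc2 siRNA (SE 0.151, adjusted p = 0.390) and -0.00045 with Thoc5 siRNA. Exosc5 differed by 0.33 (SE 0.190, adjusted p = 0.484) and 0.17. Of the remaining ring and cap genes, Exosc4 differed by -0.25 and -0.37, with both siRNA groups below NT, Exosc2 by -0.075 and -0.18, Exosc3 by -0.14 and -0.16, Exosc6 by 0.061 and 0.21, Exosc7 by -0.15 and -0.12, and Exosc8 by 0.074 and 0.032. Dis3, which closes the bottom of the ring, read 3.74 on array 1 of Thoc2 siRNA and 4.58 on array 2, on either side of the 4.08 to 4.21 of the other 4 arrays.

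Substrates reach the nuclear exosome through the helicase encoded by Skiv2l2 (Mtr4), which works with Zcchc7 in the TRAMP complex and with Zcchc8 and Rbm7 in the nuclear exosome targeting complex. Zcchc7 (chr4:44945916-44945975) had the smallest p of the 40 with Thoc5 siRNA, reading 3.14 and 3.19 under NT, 2.86 and 3.08 under Thoc2 and 2.55 and 2.61 under Thoc5 siRNA. The 3 groups did not overlap, and the Thoc5 siRNA arrays were lowest. By its brightest probe, Zcchc7 stood at 66.7% of the NT level with Thoc5 siRNA (-0.58, SE 0.152, adjusted p = 0.157; -0.58 within the shared slide) and at 87.3% with Thoc2 siRNA (-0.20, adjusted p = 0.584). The other kept probes of Zcchc7, described below, were also lower with Thoc5 siRNA, but by less. Rbm7, the RNA-binding adaptor, differed by 0.42 with Thoc5 siRNA (adjusted p = 0.275) and 0.11 with Thoc2 siRNA, Zcchc8 by 0.34 and 0.14, and Skiv2l2 by -0.15 and 0.037. With Thoc5 siRNA none of these 4 genes overlapped NT, 2 lying above and 2 below, beside 21.7% and 31.1% of all genes.

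Ncbp1 and Ncbp2 bind the cap of nuclear RNA, and Xrn2 degrades the RNA left on the polymerase after cleavage. Ncbp2 (chr16:31631804-31631863) read 1.83 and 1.54 under NT, 2.09 and 1.85 under Thoc2 and 2.22 and 2.20 under Thoc5 siRNA. At this probe, its brightest, all 4 THO siRNA arrays exceeded both NT arrays, with the Thoc5 siRNA arrays highest. The difference was 0.29 with Thoc2 siRNA (SE 0.180, adjusted p = 0.510) and 0.53 with Thoc5 siRNA (adjusted p = 0.227), and 0.02 and 0.66 within the shared slides. Relative to the other kept probe of Ncbp2, which lies upstream, this probe differed by 0.72 with Thoc2 siRNA and 0.65 with Thoc5 siRNA. Both values exceed its own differences, so the upstream probe had lower means with both siRNAs. Ncbp1 differed by -0.073 and 0.037.

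Xrn2 read 3.44 and 3.30 under NT, -0.90 and 3.31 under Thoc2 and 3.37 and 3.44 under Thoc5 siRNA. A single array, array 1 of Thoc2 siRNA, therefore sets its difference of -2.16 (SE 1.41, adjusted p = 0.522), which was -0.058 without that array. Its other probe lay between 1.57 and 2.05 on all 6 arrays, with 2.05 on that same array, and differed by 0.21. By their brightest probes, Cstf2 and Dis3 were also lowest on array 1 of Thoc2 siRNA. So were, by smaller margins, Cpsf2, Cpsf4, Sympk, Wdr33, Papolg and Exosc6. The other probe of Dis3 was instead highest on that array, at 1.32, as was the most downstream probe of Cstf2, at -1.75. The share of all genes lowest on that array was not counted.

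**Figure D3:**
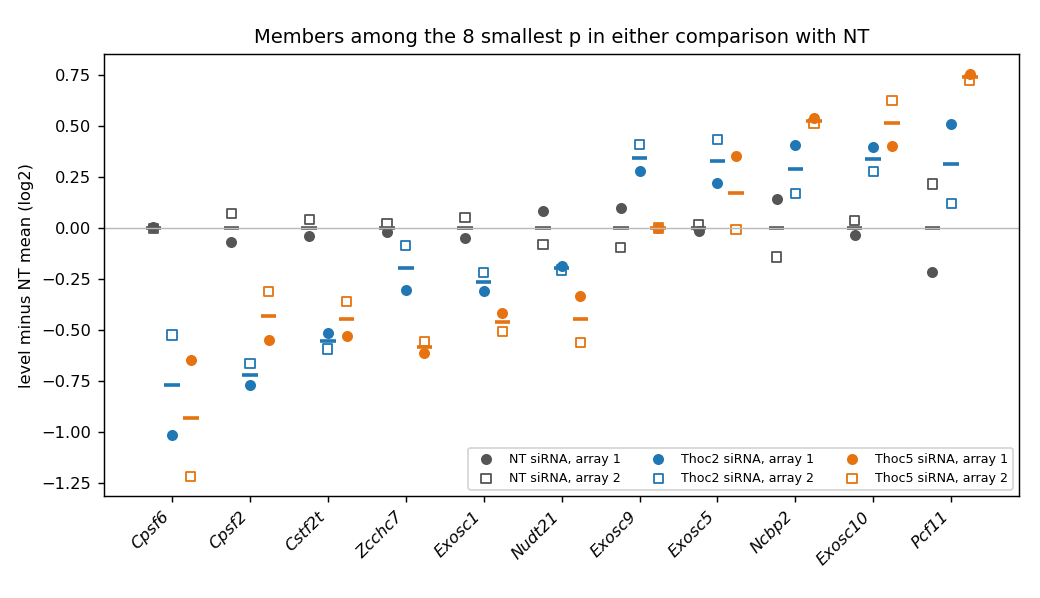
Level minus the NT mean (y axis, log2) on each array for the 11 genes among the 8 smallest p-values in either comparison with NT siRNA; bars are group means, filled circles array 1 and open squares array 2. By the brightest probe of each gene, Cpsf6, Cpsf2, Cstf2t, Zcchc7, Exosc1 and Nudt21 lie below the NT arrays with both siRNAs, and Ncbp2 and Exosc10 above them. Other probes of Cpsf6, Cpsf2 and Ncbp2 read otherwise, as did, with Thoc2 siRNA, other probes of Exosc1 and the most upstream probe of Zcchc7.

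Set directly against each other, Thoc5 and Thoc2 siRNA gave no gene of the 40 with an unadjusted p under 0.05, beside 9.19% of all genes (2.2% higher and 7% lower), and for 37 of 40 the 95% interval lay inside 2-fold. The 2 siRNA groups did not overlap in 17 of 40 genes, 8 higher and 9 lower with Thoc5 siRNA, beside 45.2% of all genes (13% and 32.2%). The 4 smallest p-values belonged to Zcchc7 (-0.39 with Thoc5 relative to Thoc2 siRNA, SE 0.152, adjusted p = 0.551), Exosc9 (-0.34, adjusted p = 0.576), Clp1 (0.25, adjusted p = 0.622) and Pcf11 (0.43, adjusted p = 0.625). The median difference over the 40 genes was -0.0025, beside -0.13 over all genes. With the 4 THO siRNA arrays averaged against NT, 6 of 40 had an unadjusted p under 0.05 (Cpsf2, Cstf2t, Cpsf6, Exosc1 and Zcchc7 lower and Exosc10 higher), beside 19.3% of all genes (8.88% higher and 10.4% lower), and none passed the adjusted threshold. Without NT array 2 that count was 1, and it was 3 without NT array 1, Thoc2 siRNA array 1 or either Thoc5 siRNA array. It was 13 after normexp correction, 10 with trended robust variances, and 3 under array median scaling or with no filter on dim probes. The share of all genes was not counted for these changes either. All 4 THO siRNA arrays lay above both NT arrays in 3 of 40 genes and below them in 8, which is 11 in all, beside 30.1% of all genes (14.1% above and 16.1% below).

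Most of these genes have more than 1 probe, and the probes did not always read alike. Of 94 probes of the 40 genes, 89 were kept, and 30 genes had 2 or more kept probes. In 17 of the 30 the probes disagreed in sign with Thoc2 siRNA, and in 13 of 30 with Thoc5 siRNA. These counts take in probes on opposite strands, as in Exosc3, and probes near background, as in Exosc9. The share over all genes was not counted. With each probe fitted by itself, 9 of 89 had an unadjusted p under 0.05 with Thoc2 siRNA and 19 of 89 with Thoc5 siRNA, beside 15.1% and 19.8% of all kept probes, and the smallest adjusted p was 0.234 and 0.107. Probes could be ordered along the direction of transcription from their mm7 coordinates, and 5 genes whose probes differed along that order are shown by the sequences of their probes, taken from the deposited files. Probes that lie in 1 block of the genome are shown by the first 30 of their 60 bases, and probes that cross an exon junction are shown whole. Capitals mark AATAAA or ATTAAA, the letters of the common poly(A) signals, searched on the strand of the probe.

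Cpsf6, upstream probe, chr10:116866928-116866987, minus strand: ttaATTAAAcaatccaaagtctctgcagat
Cpsf6, downstream probe, chr10:116852768-116852827, minus strand: tgcaaaaggtaaggtgagattccattcagt
Papola, upstream probe, chr12:103306433-103307168, plus strand: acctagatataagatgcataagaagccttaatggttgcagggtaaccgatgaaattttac
Papola, middle probe, chr12:103327060-103330941, plus strand: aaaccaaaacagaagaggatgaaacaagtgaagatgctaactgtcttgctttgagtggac
Papola, downstream probe, chr12:103334926-103334985, plus strand: tttaagaaggaaacaaaacaaaaccctcga
Cstf1, upstream probe, chr2:172173634-172173693, plus strand: gctacatctctgaggagccgggttccatgt
Cstf1, downstream probe, chr2:172174907-172174966, plus strand: acactagcgtttgagccgttgcacacgtcc
Fip1l1, upstream probe, chr5:74013925-74014611, plus strand: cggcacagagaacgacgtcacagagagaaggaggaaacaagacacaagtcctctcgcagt
Fip1l1, downstream probe, chr5:74015747-74015806, plus strand: taccacatttggaactgacttgaattaagt
Cpsf2, upstream probe, chr12:99478849-99480603, plus strand: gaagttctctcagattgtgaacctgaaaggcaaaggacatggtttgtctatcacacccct
Cpsf2, downstream probe, chr12:99500792-99500851, plus strand: tgctgtatggttatacatttttgcaattat

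These letters occur in 6 of the 94 probes of the 40 genes and in 7.49% of the 41174 probes on the array. The match in the upstream probe of Cpsf6 is a description of the probe, not a site of cleavage. Exons, introns and untranslated regions of the mm7 build were not used here, so the probes are placed by coordinate only. In Cpsf6 and Cstf1 the most upstream probe is annotated to a RefSeq mRNA, and the probes downstream of it to cDNA clones. Whether such probes report the same transcript was not tested.

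In Cpsf6 the upstream probe read 0.74 and 0.48 under NT, 1.17 and 0.87 under Thoc2 and 1.14 and 0.84 under Thoc5 siRNA. All 4 THO siRNA arrays were thus above NT at this probe, while at the most downstream probe, 14.2 kb further on and the brightest of the gene, all 4 were below. Of the 2 probes between them, the more downstream differed by -0.60 with Thoc2 siRNA and -0.69 with Thoc5 siRNA. The other (-0.57 and -1.10) read -3.20 or lower throughout and was well above background on only 5 arrays. Papola ran the other way. Its downstream probe, 27.8 kb from the upstream one, read -0.88 and -1.41 under NT, -0.26 and -0.44 under Thoc2 and 0.26 and 0.13 under Thoc5 siRNA. The 3 groups did not overlap at this dim probe, which had the smallest p of all probes of the 40 genes (difference 1.34 with Thoc5 siRNA, adjusted p = 0.107), and the middle probe differed by 1.05 with Thoc5 siRNA and -0.21 with Thoc2 siRNA.

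In Cstf1 the downstream probe, 1.27 kb away, read 0.57 and 0.80 under NT, 0.15 and 0.32 under Thoc2 and 0.03 and -0.07 under Thoc5 siRNA, so it was lower on every THO siRNA array where the upstream probe was higher. The downstream probe of Fip1l1 was dim, at -2.94 and -2.79, -3.38 and -3.13, and -3.62 and -3.53 with NT, Thoc2 and Thoc5 siRNA. It too was lower on all 4 THO siRNA arrays, against an upstream probe that differed by 0.28 and 0.19. In Cpsf2 the 2 downstream probes differed by -0.72 and -0.81 with Thoc2 siRNA and by -0.43 and -0.79 with Thoc5 siRNA, and the upstream probe by 0.16 and 0.26, although the NT arrays themselves were 1.21 apart there.

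In other genes the probes kept 1 sign with Thoc5 siRNA. All 4 probes of Pcf11 were higher with Thoc5 siRNA, by 0.30, 1.14, 0.73 and 0.74 from upstream to downstream. Both probes of Rbm7 were higher with Thoc5 siRNA (0.66 and 0.42), and both of Nudt21 were lower (-0.45 and -0.69). Exosc1 had 4 kept probes, all lower with Thoc5 siRNA, and Zcchc7 had 4, also all lower, of which only the most downstream and brightest differed by more than 0.20 with Thoc5 siRNA.

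**Figure D4:**
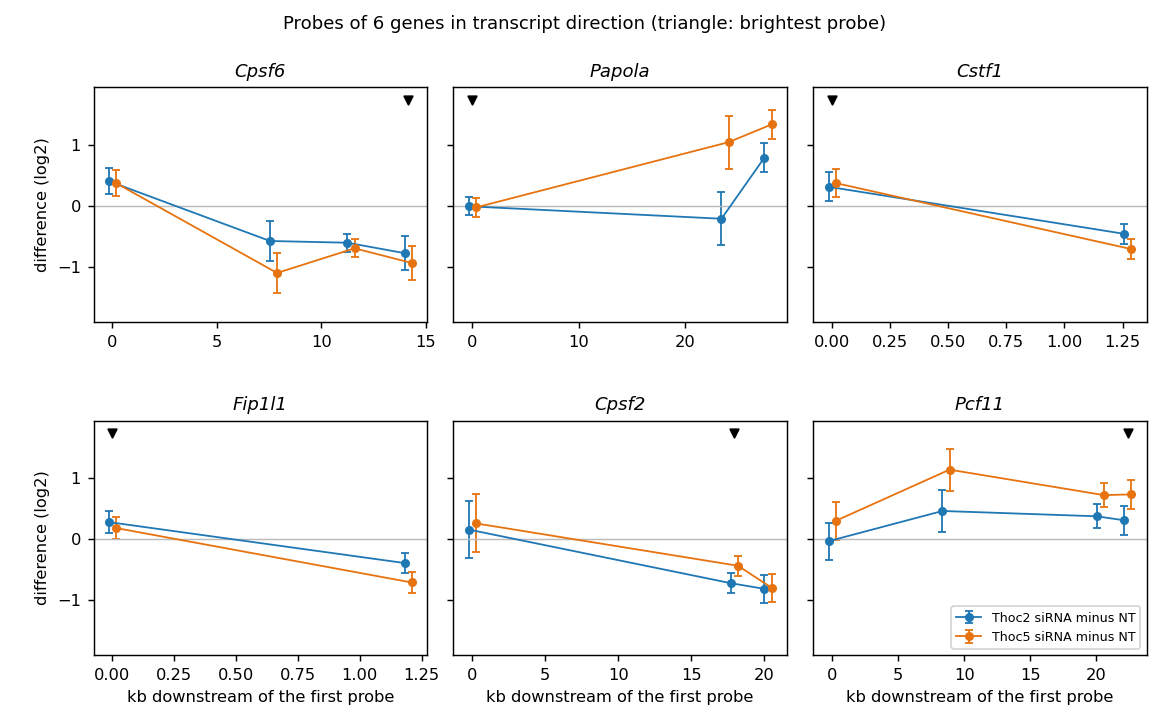
Difference from NT siRNA (y axis, log2, with its SE) of each kept probe of 6 genes against its distance in kb from the most upstream probe; a triangle marks the brightest probe. Cpsf6, Cstf1, Fip1l1 and Cpsf2 pass from above 0 to below it, Papola ends above 0, and the Pcf11 probes are all above 0 with Thoc5 siRNA.

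To set these against the rest of the array, the difference of the most downstream and the most upstream kept probe was taken on each array and tested between groups, for the 6093 genes with 2 such probes, 28 of the 40 among them. This measure was added after the single probes had been seen. No pair passed the adjusted threshold (0 of 6093, 0%), while 693 pairs with Thoc2 siRNA and 824 with Thoc5 siRNA had an unadjusted p under 0.05. Among the 28 genes it was 4 with Thoc2 siRNA, 2 higher and 2 lower, beside 11.4% of all pairs (2.17% and 9.21%), and 4 with Thoc5 siRNA, 1 higher and 3 lower, beside 13.5% (3.18% and 10.3%). The arrays of the 2 groups did not overlap in 11 of the 28 with Thoc2 siRNA and in 17 with Thoc5 siRNA, beside 40.6% and 49.6% of all pairs. Both counts include Exosc9, whose upstream probe was well above background on only 2 of 6 arrays, and the second includes Exosc5, whose downstream probe was well above background on 5 arrays. Papola had the smallest p (1.36 with Thoc5 siRNA, SE 0.293, adjusted p = 0.204; 0.80 with Thoc2 siRNA, adjusted p = 0.433). Cstf1 followed (-1.08, SE 0.236, adjusted p = 0.204; -0.77 with Thoc2 siRNA), then Cpsf6 (-1.31, SE 0.335, adjusted p = 0.241; -1.18 with Thoc2 siRNA) and Fip1l1 (-0.89, SE 0.284, adjusted p = 0.301; -0.67 with Thoc2 siRNA).

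For these 4 genes both arrays of each siRNA lay on the same side of both NT arrays. Ncbp2 (0.72, limma adjusted p = 0.433) also had an unadjusted p under 0.05 with Thoc2 siRNA. The downstream probe read lower relative to the upstream one in 18 of the 28 genes with each siRNA, which is 64.3% of them, beside 66.3% of all pairs with Thoc2 siRNA and 63.0% with Thoc5 siRNA. The median over all pairs was -0.18 and -0.16, and over the 28 genes -0.061 and -0.13. Array medians relative to the NT mean were -0.051 and 0.051 for NT siRNA, -0.23 and -0.13 for Thoc2 siRNA and -0.13 and -0.20 for Thoc5 siRNA. A lower downstream probe was thus common over the whole array with either siRNA, both set against the same NT arrays. The median over all pairs was -0.071 with Thoc2 siRNA and -0.090 with Thoc5 siRNA after normexp correction. Within the shared slide it was -0.077 and -0.25. RNA quality, labelling, background and slide were not tested as the source.

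**Figure D5:**
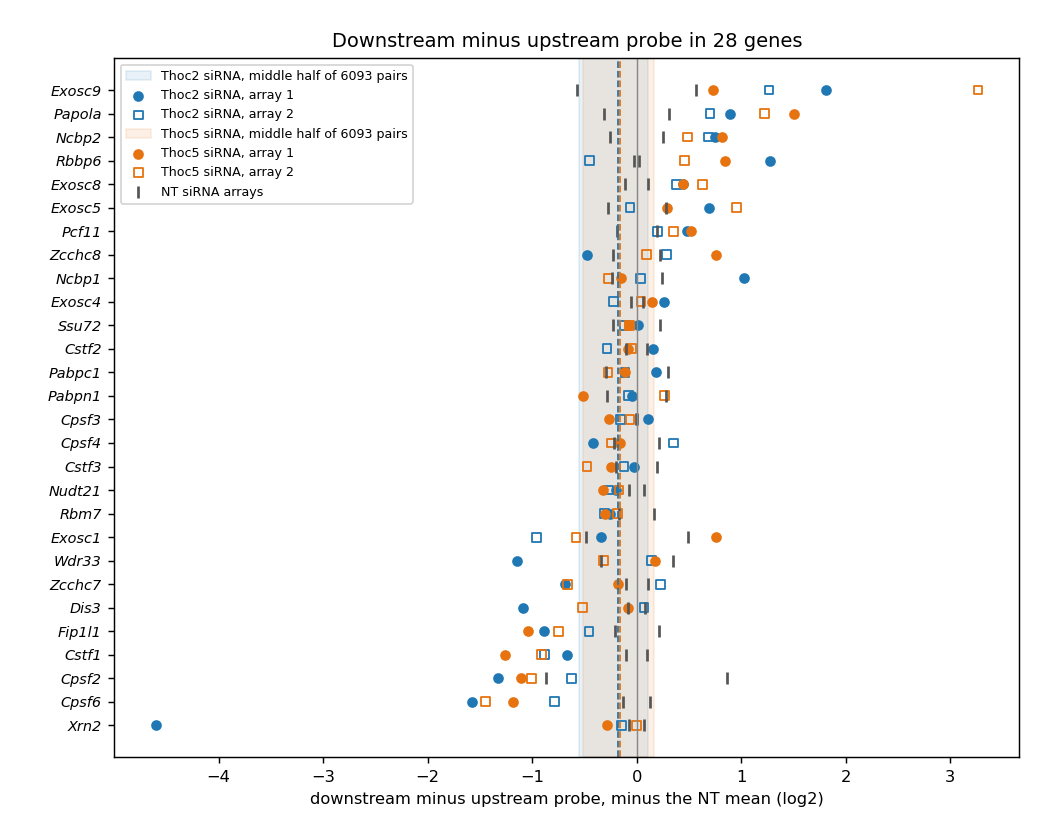
Downstream minus upstream probe relative to the NT mean (x axis, log2) for the 28 genes with a pair, on each array; shading runs from the 25th to the 75th percentile of all pairs for each siRNA and dashed lines are their medians. Papola, Ncbp2, Pcf11 and Exosc8 lie right of the NT arrays with both siRNAs, as does Exosc9, whose upstream probe was well above background on only 2 arrays, and Fip1l1, Cstf1, Cpsf6, Nudt21 and Rbm7 left of them.

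Genes that work with these were looked at as 5 lists. Of 10 genes of the poly(A) tail and its partners, none passed the adjusted threshold, and 0 with Thoc2 siRNA and 1 with Thoc5 siRNA had an unadjusted p under 0.05, beside 14.6% and 19.6% of all genes (medians -0.0046 and -0.15). That 1 gene was Pan2, a tail-shortening nuclease subunit, at 0.20 and 0.07 under NT, 0.02 and -0.23 under Thoc2 and -0.33 and -0.71 under Thoc5 siRNA, a difference of -0.65 with Thoc5 siRNA (adjusted p = 0.205). Its Thoc5 siRNA arrays were below all others. Ppp1cb, a phosphatase subunit of the complex, differed by -0.42 with each siRNA (adjusted p = 0.376 and 0.295), and Zc3h14, a poly(A)-binding protein, by -0.23 with Thoc2 siRNA. Tent2 (-0.36) and Pan2 (-0.41) had the smallest p between the siRNAs, and Ppp1cb (-0.42) and Pan2 (-0.44) with both THO siRNAs averaged.

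Of 12 measured exosome cofactors, 1 had an unadjusted p under 0.05 with Thoc2 siRNA and 0 with Thoc5 siRNA, again beside 14.6% and 19.6% of all genes (medians -0.031 and -0.090). Tent4b, a poly(A) polymerase that marks RNA for the exosome, read 0.80 and 1.15, -0.13 and 0.53, and 0.45 and 0.54 with NT, Thoc2 and Thoc5 siRNA. No THO siRNA array reached the NT arrays, with differences of -0.77 (adjusted p = 0.333) and -0.47 (adjusted p = 0.434). Zfc3h1 differed by 0.23 with Thoc2 siRNA, Skiv2l by 0.26 with Thoc5 siRNA, and Dis3l (-0.35) and C1d (-0.69) had the smallest p between the siRNAs. With both siRNAs averaged, Tent4b differed by -0.62 and Zfc3h1 by 0.26.

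None of 14 Integrator subunits had an unadjusted p under 0.05 with either siRNA, beside the same 14.6% and 19.6% (medians 0.11 and -0.0025). Ints4 (-0.76, adjusted p = 0.380) and Ints5 (-0.33) had the smallest p with Thoc2 siRNA, Ints7 (0.33, adjusted p = 0.344) and Ints12 (0.33) with Thoc5 siRNA, and Ints6 (-0.41) and Ints5 (0.32) between them, while Ints7 (0.30) and Ints12 (0.29) led with both averaged. The count was also 0 with either siRNA for 6 genes of histone mRNA ends, beside 14.6% and 19.6% (medians -0.051 and -0.15), where Lsm11, of the U7 particle, differed by -0.32 and -0.50, Casp8ap2 by 0.21 with Thoc2 siRNA, and Slbp, which binds the histone stem-loop, by -0.29 with Thoc5 siRNA. Slbp (-0.17) and Zfp473 (-0.18) had the smallest p between the siRNAs, and Lsm11 (-0.41) and Slbp (-0.20) with both averaged. None of these passed the adjusted threshold.

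Among 10 genes of termination and the polymerase tail, 2 had an unadjusted p under 0.05 with Thoc2 siRNA and 1 with Thoc5 siRNA, beside 14.6% and 19.6% of all genes (medians 0.023 and -0.073). The paralogs Rprd1a and Rprd1b, which bind the polymerase tail, went opposite ways. Rprd1b read -0.86 and -0.89 under NT, -0.39 and -0.46 under Thoc2 and -0.41 and -0.50 under Thoc5 siRNA, differences of 0.45 (SE 0.137, adjusted p = 0.280) and 0.42 (adjusted p = 0.212). Rprd1a read 3.67 and 3.58, 1.43 and 2.82, and 2.51 and 2.92, differences of -1.51 (SE 0.502, adjusted p = 0.306) and -0.91 (adjusted p = 0.400). For both genes all 4 THO siRNA arrays lay on 1 side of the NT arrays. Rprd1a differed by 0.60 between the siRNAs, and with both siRNAs averaged Rprd1b differed by 0.44 and Rprd1a by -1.21.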

How the data were processed

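Per the labels' protocols, total RNA was labelled with a Low Input Quick Amp kit. The authors deposited scanner output, in which intensity is Agilent's processed signal (background-subtracted and dye-corrected), and a series table of log2 values. Feature Extraction 11.0 is named per the submitters' processing notes, while the file headers give 9.5.3.1 and build mm7. Log2 intensity minus each array's 75th percentile was computed, control and outlier spots were left out, and spots of a probe were averaged. A probe was kept if well above background on both arrays of a group (28371 of 41174), and the brightest kept probe stood for its gene. Names came through accessions in a RefSeq table (GRCm38.p6), then symbols and synonyms. Limma 3.58.1 (R 4.3.3) fitted all 6 arrays, with 3 residual and 1.49 prior degrees of freedom, and Benjamini-Hochberg adjustment over all genes (threshold 0.05). Intervals are 95% from that fit. The fits were tested on simulated data.

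The number of arrays, 2 a group, limits the precision. The arrays lie on 4 slides, of which 1 holds NT 1 and Thoc2 2 and another NT 2 and Thoc5 2. Deviations of same-numbered arrays correlated at -0.20, 0.14 and 0.22, so replicate numbers were not taken to pair the samples. With slide as a random block, the estimated correlation of arrays on a shared slide was 0.29. The main fit has no slide term and treats the arrays as independent. The members and lists were chosen with earlier results of these data known. Named by rule were all 40 members, with each array's value for the 8 of smallest p in each comparison with NT siRNA, the 4 of smallest p between the siRNAs and the 3 brightest and 3 dimmest, and the 2 genes of smallest p in each list and comparison, of which 1 result is not reported here; Xrn2, Cstf2, Dis3 and the probes of Papola, Cstf1, Fip1l1, Cpsf2, Pcf11, Rbm7 and Nudt21 were added after their values were seen. Nrde2 and Ttc37 were matched to no probe, and the probe of Lum was not kept. The alternatives tried were other background correction and normalization, filters, probe rules, variance models, slide and replicate blocks, the series table and each array left out.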

Additional observations from a re-analysis of the deposited data

How the results depend on the processing

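Each group has 2 arrays, and signal over background limits what dim probes can show. Under every setting 0 of the 40 genes passed the adjusted threshold. Of 794 values of 38 gene results, 53 changed sign, mostly of genes near 0, and the cause was not tested. Genes called with Thoc2 siRNA, Thoc5 siRNA and both averaged, 0 as reported, were 5, 176 and 220 after normexp correction with quantile scaling and 4, 661 and 640 with trended robust variances, and 543 with Thoc5 siRNA and 465 with both averaged when detection on all arrays was required. Scaling to the array median gave medians of the 40 genes of -0.32 (Thoc2 siRNA), 0.39 (Thoc5 against Thoc2 siRNA) and -0.16 (both).

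Replicate numbers were not shown to pair the arrays; with a replicate block 0 genes passed in each comparison, and 2 of the 40 genes with Thoc2 siRNA, 2 with Thoc5 siRNA, 0 between them and 3 with both had an unadjusted p under 0.05. With the numbers of the Thoc2 siRNA arrays crossed, chosen after seeing the data, 0 genes passed and these counts were 3, 6, 0 and 5. The share of all genes with such an unadjusted p was not counted under either block.

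With Thoc2 siRNA, the mean of all kept probes gave 0.023 for Exosc1, -0.43 for Exosc9 (1 of its 2 probes being well above background on only 2 arrays), -0.072 for Ncbp2, 0.20 for Papola, -0.067 for Cstf1 and -0.052 for Fip1l1, and with Thoc5 siRNA 0.79 for Papola, -0.16 for Cstf1 and -0.26 for Fip1l1. Array median scaling gave -0.016 for Ncbp2, -0.019 for Fip1l1 and -0.15 for Thoc5 with Thoc2 siRNA, 0.087 for Exosc9 and 0.066 for Papola with Thoc5 siRNA, and 0.047 for Exosc9 and 0.0010 for Zcchc7 between the siRNAs. Normexp gave 0.058 for Nudt21, 0.10 for Papola and -0.063 for Thoc5 with Thoc2 siRNA, and 0.070 for Exosc9, 0.0026 for Papola and -0.016 for Thoc2 with Thoc5 siRNA. Papola with Thoc2 siRNA, Exosc9 with Thoc5 siRNA and Papola with Thoc5 siRNA were 0.030, 0.039 and 0.051 with quantile scaling, 0.024, 0.048 and 0.041 with cyclic loess, 0.027, 0.042 and 0.022 with the percentile over detected probes, 0.031, 0.039 and 0.052 in the series table, and 0.053, 0.095 and 0.0074 within the shared slide, and the first 2 were 0.016 and 0.022 with slide as a random block. Within the shared slide Thoc5 was -0.0043 with Thoc2 siRNA, Exosc5 -0.020 with Thoc5 siRNA and the Cpsf2 probe pair 0.25 with Thoc2 siRNA.

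The median of all probe pairs with Thoc2 siRNA was -0.071 after normexp, -0.11 with quantile scaling and -0.077 over bright pairs or within the shared slide, and with Thoc5 siRNA -0.090 after normexp and -0.25 within the slide. Over bright pairs alone, 1 pair passed with Thoc2 siRNA and 47 with Thoc5 siRNA, among them Cstf1 (limma adjusted p = 0.040).

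Leaving out each array in turn gave -4.27 to -0.058 for Xrn2 with Thoc2 siRNA, the latter without array 1 of Thoc2 siRNA, and -0.051 to 0.048 for Papola and -0.14 to 0.44 for Thoc5. With Thoc5 siRNA the ranges were -0.0067 to 0.35 for Exosc5, -0.097 to 0.096 for Exosc9, -0.036 to 0.10 for Xrn2, -0.099 to 0.057 for Papola and -0.31 to 0.33 for Thoc2. The 40 genes then held 1 to 4 with an unadjusted p under 0.05 with Thoc2 siRNA and 0 to 6 with Thoc5 siRNA. A group left with 1 array was assumed to vary like the others. The share of all genes with such an unadjusted p was not counted with an array left out.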
